A study of Arabidopsis thaliana with 3 samples.

Results

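The genes described here are 9 loci of the photoperiodic flowering pathway of Arabidopsis thaliana: CO (AT5G15840), CDF1 (AT5G62430), CDF2 (AT5G39660), CDF3 (AT3G47500), CDF5 (AT1G69570), FT (AT1G65480), TSF (AT4G20370), TEM1 (AT1G25560) and TOE1 (AT2G28550). They were listed by locus, by a rule that uses no measured value but was written with earlier results of these data known, from 27444 nuclear protein-coding genes. The series was an anti-GFP chromatin immunoprecipitation with sequencing of 7-day-old whole seedlings kept in continuous low blue light, with 1 library each of Col-0 wild type, OX TZP and OX ZFHD10. OX TZP and OX ZFHD10 are lines that overexpress the zinc-finger protein TZP and the zinc-finger homeodomain protein ZFHD10, and the sample titles name GFP, the tag the antibody binds. The promoters that drove them, and whether each line came from 1 insertion, are not given in the sources used here. The data are lists of islands, stretches of the genome enriched in reads, of OX TZP (11675 nuclear islands with 2028493 reads) and OX ZFHD10 (16122 with 4731495), and Col-0 was not analysed here. An island was assigned to a gene when it overlapped the gene or the 1000 bp on either side, which gave 10 OX TZP islands and 14 OX ZFHD10 islands at the 9 genes.

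In Arabidopsis, day length is read in the leaf through CO, a B-box protein that accumulates at the end of long days and switches on FT. FT and its close relative TSF encode small mobile proteins that travel to the shoot tip and start flowering. The CDF proteins are DOF-type repressors of CO and FT that are removed in the light by FKF1 and GI, and TEM1 and TOE1 are repressors of FT with AP2-type DNA-binding domains. TZP is known as a nuclear protein of light and photoperiod signalling that acts with phytochrome B.

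OX TZP islands lay at FT and at 5 of the 6 repressor genes (CDF2, CDF3, CDF5, TEM1 and TOE1), and none lay within 1000 bp of CO, TSF or CDF1. OX ZFHD10 islands lay at 8 of the 9 genes, all but FT. In OX TZP this is 6 of 9 genes, where 47.2% of all nuclear protein-coding genes had an island by the same rule, a share that would give 4.25 of 9. In OX ZFHD10 the 8 of 9 stand beside 65.9% of all genes, or 5.93 of 9. Among the 9589 protein-coding genes with lengths between those of the shortest member (1759 bp) and the longest (2969 bp), the shares were 49.2% and 71.6%. With 1 library a line, neither the lines nor the members and the background could be tested against each other, and these counts are no result about the group as such.

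**Figure D1:**
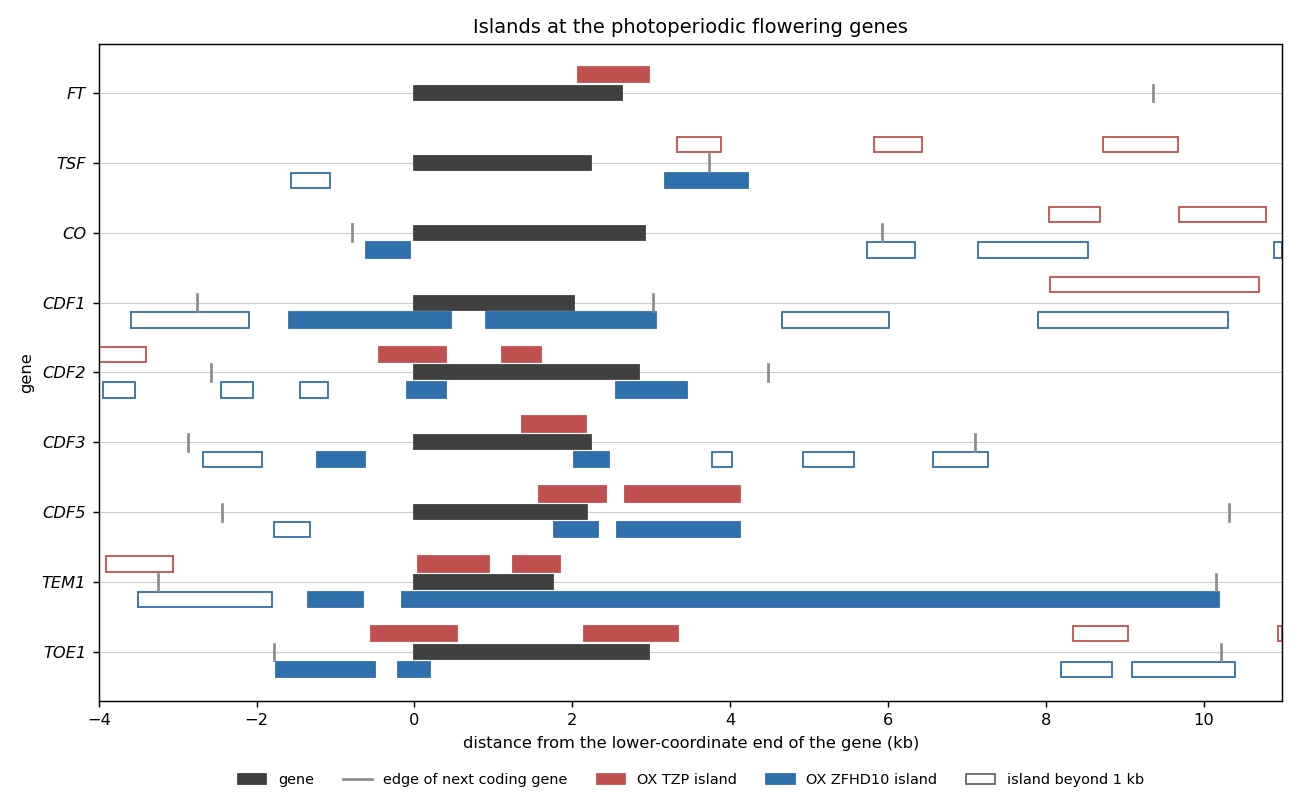
Islands of OX TZP (red, above each gene) and OX ZFHD10 (blue, below) by distance in kb from the lower-coordinate end of each gene, with the gene as a dark bar, grey ticks at the edges of the next protein-coding genes outside it, filled boxes for islands within 1000 bp and open boxes for islands farther away. CDF2, CDF3, CDF5, TEM1 and TOE1 have islands of both lines that overlap, FT has an OX TZP island alone, and one OX ZFHD10 island covers TEM1 and the whole space up to the next gene.

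FT carried a single island, of OX TZP, at its higher-coordinate end. It ran over chr1:24333451-24334350 (build TAIR10), 900 bp with 136 reads, or 151 reads per kb of island (95% exact Poisson interval 127 to 179). That density ranked 9238 of 11675 and was 0.928 times the median of the list, 163 reads per kb. The island was thus in the sparser part of its list, though its interval held the median. Inside FT lay 61.0% of the island, covering 20.9% of the gene, and the remainder reached 351 bp beyond it. The gene table gives no strand, but FT is known to be transcribed toward higher coordinates, which places this island over its 3′ end. No other island of either line lay within 10000 bp of FT, the promoter side included. The nearest OX ZFHD10 island was 11151 bp away, at chr1:24345151-24345900, and 5.71% of protein-coding genes were as far from such an island or farther. FT has wide spaces on both sides, 7281 bp to FAS1 and 6736 bp to AT1G65481, and no OX ZFHD10 island lay in either.

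TSF, the closest relative of FT, met the rule only at its margin. An OX ZFHD10 island at chr4:11003951-11005000, with 250 reads, a density of 238 per kb (209 to 270; rank 10818 of 16122), began 940 bp from the gene and shared 60 bp with the flank. The same island overlapped the near end of the next gene, LSD1, a regulator of cell death, and so lay nearer to it than to TSF. The nearest OX TZP island, at chr4:11004101-11004650 with 103 reads, a density of 187 per kb (153 to 227), overlapped LSD1 as well and was 1090 bp from TSF. Neither line thus had an island on the body of TSF, whereas FT had one of OX TZP.

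CO had no OX TZP island nearer than 5115 bp, a distance that 23.3% of protein-coding genes reached or passed. Its OX ZFHD10 island, at chr5:5169551-5170100, held 202 reads in 550 bp, or 367 reads per kb (318 to 422). With rank 1627 of 16122 and 1.40 times the list median of 262 reads per kb, it was the densest OX ZFHD10 island of the 9 genes. It lay wholly outside CO, 61 bp from its lower-coordinate end, in the 796 bp between CO and bZIP3, a gene of a leucine-zipper transcription factor, and was 185 bp from the latter. The long noncoding RNA gene AT5G02465 and the microRNA gene MIR865 lie under it, so that it cannot be assigned to CO alone. On the other side, COL1, a CO-like gene 3005 bp away, had islands of both lines, none within 1000 bp of CO.

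Of the CDF genes, CDF1 was the one with OX ZFHD10 islands alone. The first, at chr5:25067501-25069550, crossed the lower-coordinate end with 602 reads, a density of 294 per kb (271 to 318; rank 5097). The second, at chr5:25070001-25072150, crossed the other end with 527 reads, a density of 245 per kb (225 to 267; rank 9995) and reached the neighbour AT5G62440. Together they covered 77.7% of CDF1 and 100% of both flanks, and left only a stretch in the middle of the gene uncovered. No OX TZP island lay nearer to CDF1 than 6039 bp.

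CDF2 had islands of both lines at its lower-coordinate end. There the OX TZP island at chr5:15878251-15879100 had 127 reads, a density of 149 per kb (125 to 178; rank 9662), and the OX ZFHD10 island at chr5:15878601-15879100 had 110 reads, a density of 220 per kb (181 to 265; rank 12840). The OX ZFHD10 island lay wholly within the OX TZP island, and both ended at the same position. Both densities were below the medians of their lists, though each interval held its list median. Farther in, OX TZP had one more, within CDF2, at chr5:15879801-15880300 with 88 reads, a density of 176 per kb (141 to 217; rank 2889). At the opposite end OX ZFHD10 had one at chr5:15881251-15882150 with 240 reads, a density of 267 per kb (234 to 303; rank 7584). CDF2 lies 29.8 kb from AT5G39760 (HB23), taken here as the ZFHD10 gene since the labels give no locus.

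At CDF3 the lists met only at the edges of their islands. The OX TZP island at chr3:17505251-17506050 lay wholly inside the gene, with 124 reads, a density of 155 per kb (129 to 185; rank 8144). An OX ZFHD10 island at chr3:17505901-17506350, with 122 reads, a density of 271 per kb (225 to 324; rank 7128), crossed the higher-coordinate end and shared 150 bp with it, 18.8% of the OX TZP island. A second OX ZFHD10 island, at chr3:17502651-17503250 with 139 reads, a density of 232 per kb (195 to 274; rank 11614), lay 632 bp outside the other end.

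At CDF5 both islands of each line matched one of the other. At its higher-coordinate end the OX TZP island at chr1:26163101-26163950 had 136 reads, a density of 160 per kb (134 to 189; rank 6530), and the OX ZFHD10 island within it, at chr1:26163301-26163850, had 126 reads, a density of 229 per kb (191 to 273; rank 11911). Their midpoints were 50 bp apart, the width of 1 window of the island calls. Outside the gene the OX TZP island at chr1:26164201-26165650 had 247 reads, a density of 170 per kb (150 to 193; rank 3980), and the OX ZFHD10 island at chr1:26164101-26165650 had 412 reads, a density of 266 per kb (241 to 293; rank 7711). These ended at the same position, again with midpoints 50 bp apart, and the OX TZP island lay wholly within the OX ZFHD10 island. The next protein-coding gene on that side, AT1G69580, is 8140 bp away, so CDF5 was the nearest protein-coding gene to all 4 islands. The long noncoding RNA gene AT1G69572, which overlaps CDF5, was touched by none of them.

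TEM1 lay under one of the longest OX ZFHD10 islands. It ran over chr1:8981401-8991750, 10350 bp with 3214 reads, and ranked 3 of 16122 by length and 9 by reads. Its density, 311 reads per kb (300 to 321; rank 3931), was 1.18 times the list median, so its place by reads came mostly from its length. The island covered all of TEM1, yet only 17.0% of it lay in the gene. It began 155 bp outside the lower-coordinate end, reached 8436 bp past the other and filled the 8393 bp up to AT1G25570, whose edge it overlapped. Another OX ZFHD10 island, at chr1:8980201-8980900 with 178 reads, a density of 254 per kb (218 to 295; rank 8902), lay 655 bp outside the lower-coordinate end. OX TZP had shorter islands there, of which the farthest ended 86 bp past the higher-coordinate end of TEM1. The first, inside the gene at chr1:8981601-8982500, had 128 reads, a density of 142 per kb (119 to 169) and with rank 10982 was the sparsest OX TZP island of the group. The second, across the higher-coordinate end at chr1:8982801-8983400, had 111 reads, a density of 185 per kb (152 to 223; rank 1784). Both lay wholly under the long OX ZFHD10 island, which by its extent would overlap any island in the gene.

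TOE1, named RAP2.7 in the gene table, had OX TZP islands across both ends. The one at chr2:12225101-12226200 had 167 reads, a density of 152 per kb (130 to 177; rank 9056). The other, at chr2:12227801-12229000 with 223 reads, a density of 186 per kb (162 to 212; rank 1724), was the densest OX TZP island of the group. Both OX ZFHD10 islands were on the lower-coordinate side. A short one at chr2:12225451-12225850, with 98 reads, a density of 245 per kb (199 to 299; rank 9996), lay wholly within the OX TZP island at that end and shared its midpoint. A longer one at chr2:12223901-12225150, with 292 reads, a density of 234 per kb (208 to 262; rank 11396), lay outside the gene and only 27 bp from the neighbour AT2G28540. No OX ZFHD10 island lay at the end of TOE1 with the denser OX TZP island.

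By density the islands of these genes were ordinary members of their lists. The 10 OX TZP islands had 142 to 186 reads per kb (median 157.5, against 163 in the list), and the interval of each held the list median, so counting error does not separate any of them from a typical island. The 14 OX ZFHD10 islands had 220 to 367 reads per kb (median 249.7, against 262). For 10 of them the interval held the list median, for 3 it lay above (at CO, the first island of CDF1 and the long island of TEM1), and for 1 just below (the outer island of TOE1). None of the islands of either line was among the densest 10% of its list, though the one at CO, at percentile 89.9, was just short of it. Densities are not compared between the lines, because the depth of the whole libraries is unknown.

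**Figure D2:**
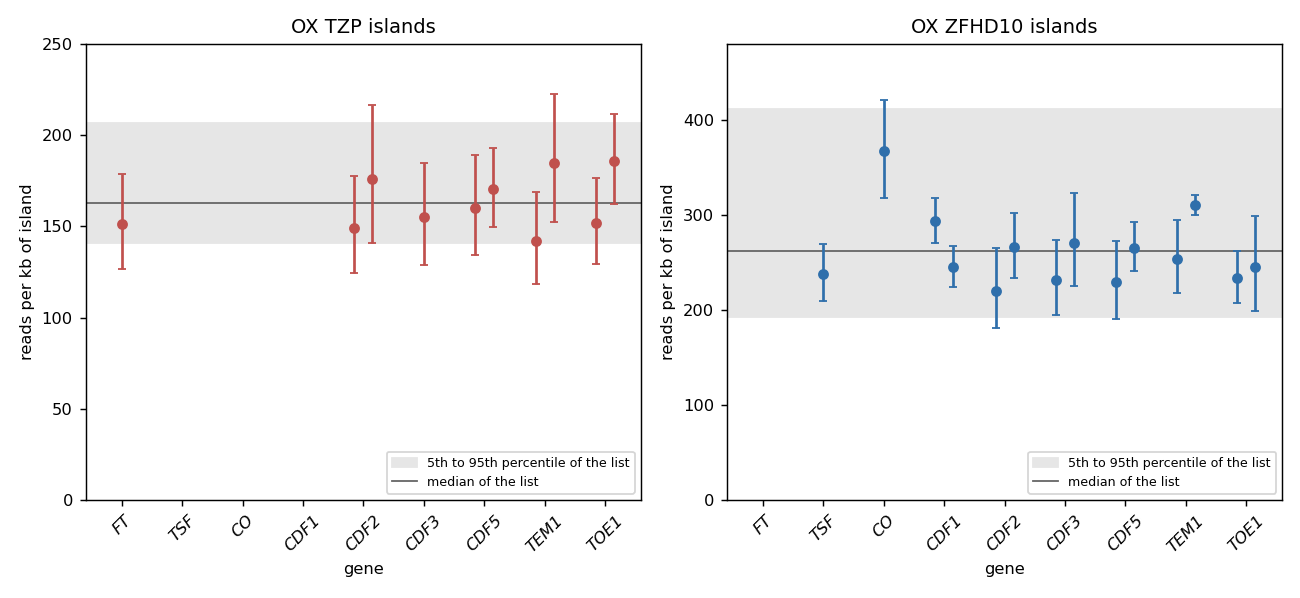
Reads per kb of every island within 1000 bp of each gene, OX TZP left and OX ZFHD10 right, as points with 95% exact Poisson intervals, with the median and the 5th to 95th percentile of the whole list in grey. All points lie within the grey range, from 142 to 186 reads per kb in OX TZP and from 220 to 367 in OX ZFHD10, and the highest OX ZFHD10 point is the island beside CO.

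In how much of each gene was covered, the members differed widely. OX ZFHD10 islands covered 88.8% of CDF1 with its flanks and 86.7% of TEM1 with its flanks, above 99.3% and 99.2% of protein-coding genes. In the other members OX ZFHD10 covered 28.9% of CDF2, 27.8% of CDF5, 19.3% of CDF3, 18.0% of TOE1, 11.2% of CO, 1.42% of TSF and none of FT, where the mean of all protein-coding genes was 17.8%. In OX TZP the covered share was highest at TOE1 (46.3%), TEM1 (39.9%), CDF5 (32.6%) and CDF2 (27.9%), followed by FT (19.5%) and CDF3 (18.9%), where the mean of all genes was 11.8%. The gene with the highest coverage in OX ZFHD10, CDF1, thus had none in OX TZP. Several members had more than 1 island. In OX TZP these were CDF2, CDF5, TEM1 and TOE1 (4 of 9, against 12.3% of all genes). In OX ZFHD10 they were the same 4, CDF1 and CDF3 (6 of 9, against 23.5% of all genes). These shares are of genes of any length, with or without an island, and were not tested. Among genes with an island, the mean number was 1.31 in OX TZP (members 1.67) and 1.40 in OX ZFHD10 (members 1.75).

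**Figure D3:**
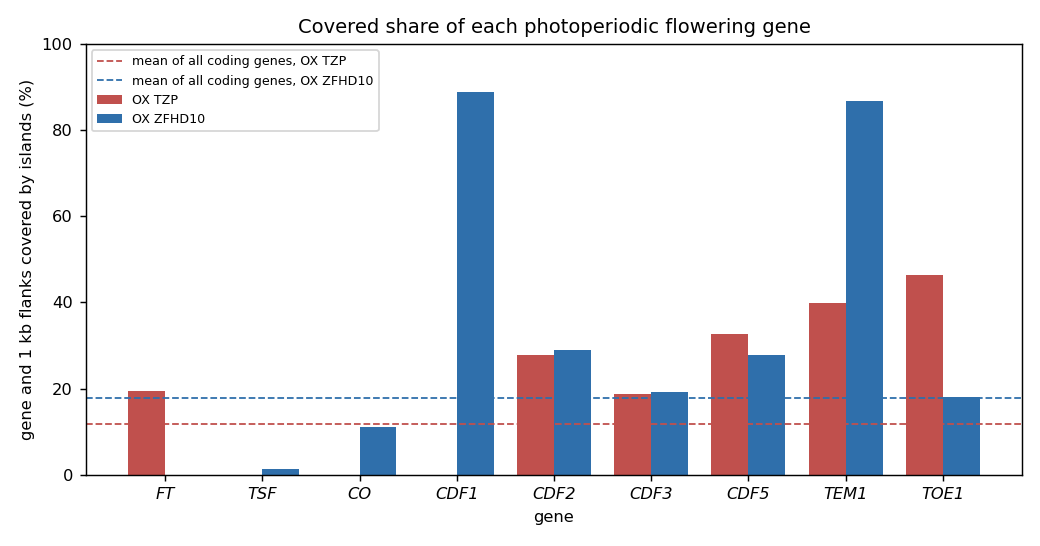
Share in percent of each gene and its 1000 bp flanks covered by islands, OX TZP in red and OX ZFHD10 in blue, with dashed lines at the mean of all nuclear protein-coding genes (11.8% and 17.8%). CDF1 and TEM1 stand out in OX ZFHD10 with 88.8% and 86.7%, while the highest share in OX TZP is 46.3%, at TOE1.

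Most OX TZP islands at these genes lay on the gene itself. Of the 10 OX TZP islands, 9 touched the body of a member, 3 of them wholly inside it and 6 across an end. An OX TZP island lay on the body of 6 of the 9 members, against 34.3% of all protein-coding genes. These were all 6 members with an OX TZP island. Among all protein-coding genes with an OX TZP island, 9425 of 12963 had one on the body. In OX ZFHD10, 6 of 9 members had an island on the body, against 54.3% of all genes. Of the 14 OX ZFHD10 islands, 8 touched a body, all of them across an end or over the whole gene, and 6 lay outside. Over all pairs of an island and a protein-coding gene within 1000 bp the order was the reverse, with 66.4% of OX TZP pairs and 72.3% of OX ZFHD10 pairs touching the body, and the difference at these genes was not tested. Islands of each line overlapped the other at 5 of the 9 genes, CDF2, CDF3, CDF5, TEM1 and TOE1, against 26.6% of all genes, which would give 2.39 of 9. This count fell to 2 when the lists were limited to their denser 50% (CDF5 and TEM1) or to the 50% with the most reads (CDF5 and TOE1), where 9.86% and 11.4% of all genes had such islands. In the 50% with the most reads, the genes with an OX TZP island also numbered 2, against 29.0% of all genes. Islands of each line with midpoints at most 250 bp apart were found at 3 genes, CDF2, CDF5 and TOE1, against 11.8% of all genes. Counting an island only where its midpoint or at least 50% of its length lay within 1000 bp of the gene left TEM1 with no OX ZFHD10 island and so no overlap. All 5 genes encode repressors, but so do 6 of the 9 genes listed, and the remaining repressor gene, CDF1, had no OX TZP island. Of all genes, 36.7% had islands of both lines, as these 5 genes did.

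Around the 9 genes, 47 other genes of the photoperiod pathway were examined. Of these 30 had an OX TZP island (63.8%, against 47.2% of all genes) and 35 an OX ZFHD10 island (74.5%, against 65.9%). Both lines had islands at 24 of the 47 (36.7% of all genes), overlapping at 19 (26.6% of all genes). An OX TZP island alone lay at 6 of the 47, against 10.5% of all genes. An OX ZFHD10 island alone lay at 11 of the 47, against 29.2% of all genes. No island of either line lay at 6 of the 47, against 23.5% of all genes. These shares are of genes of any length. The list was chosen with earlier results of these data known. Where one of these genes had several islands of a line, the densest is given. With 47 genes beside 9, an island denser than any at the 9 is more easily found.

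Among photoreceptors and clock-linked regulators, GI, PHYA, PHYB and CRY2 had overlapping islands of both lines (4 of 8 genes, against 26.6% of all genes). CRY1 had an OX ZFHD10 island alone. At GI, which with FKF1 removes CDF proteins, the densest of 3 OX TZP islands ranked 154 with 247 reads per kb (209 to 290), higher than any OX TZP island at the 9 genes, and the denser of 2 OX ZFHD10 islands had 270 (243 to 299). FKF1, the blue-light receptor that binds CDF proteins, had an OX ZFHD10 island alone, with 298 reads per kb (269 to 330), and its relatives ZTL and LKP2 had OX TZP islands alone, with 147.5 and 179 reads per kb. All 5 genes for CO stability had an OX ZFHD10 island (65.9% of all genes did) and 4 an OX TZP island (47.2% did). SPA1, part of the ligase complex with COP1 that degrades CO, had 2 OX ZFHD10 islands and none of OX TZP. COP1, SPA3, SPA4 and HOS1 had islands of both lines, which overlapped only at SPA3 and SPA4.

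Genes of CO transcription were mixed. Of the 6, 4 had an OX TZP island and 4 an OX ZFHD10 island, against 47.2% and 65.9% of all genes. FBH4 and FBH2, activators of CO, had islands of both lines, as did TPL, a corepressor. FBH3 had an OX ZFHD10 island alone, and FBH1 had none. AT2G34140 (CDF4), which has no name in the gene table, had 3 OX TZP islands and none of OX ZFHD10. NF-YB2, NF-YB3 and NF-YC4, subunits of the NF-Y complex with which CO acts, had overlapping islands of both lines, as did NF-YC3, while NF-YC9 and the CO-like gene COL2 had OX ZFHD10 islands and none of OX TZP. Of the 7 CO relatives and partners, COL1 included, 5 had overlapping islands of both lines, against 26.6% of all genes. At NF-YB2 the OX ZFHD10 island ranked 131 with 515 reads per kb (480 to 552), above any at the 9 genes.

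Of the 7 other FT repressors, 3 had an OX TZP island (42.9%, against 47.2% of all genes). An OX ZFHD10 island lay at 6 of them (85.7%, against 65.9%). Overlapping islands of both lines lay at 2 of them, TEM2 and TOE2, the close relatives of TEM1 and TOE1 (all genes 26.6%). TEM2 had 190 reads per kb (163 to 221; rank 1351) in OX TZP and 418 (403 to 433; rank 722) in OX ZFHD10, whose island there, like that at TEM1, was long, with 7200 bp and rank 20 by length, a likeness picked out after the values were seen. TOE2 had 220 (170 to 280; rank 329) and 277 (225 to 338; rank 6533). SVP had islands of both lines that did not overlap, SMZ, SNZ and FLC had OX ZFHD10 islands alone, and TOE3 had none. CIB1, PIF4 and MED25, activators of FT, had islands of both lines, all 3 genes of this role, against 36.7% of all genes.

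Of the FT relatives and transport genes, 1 of 5 had an OX ZFHD10 island and 3 of 5 an OX TZP island, against 65.9% and 47.2% of all genes. The group is small and was not tested against the others. BFT and ATC had an OX TZP island alone, as FT did, with 142 and 158 reads per kb, and TFL1 and MFT had no island. FTIP1, which moves FT protein out of companion cells, had islands of both lines. Of FT's partners and targets at the shoot tip, LFY had islands of both lines, and FD and SOC1 an OX ZFHD10 island alone. FUL had an OX TZP island alone, and AP1 and FDP had none. An OX TZP island lay at 2 of these 6 genes and an OX ZFHD10 island at 3, against 47.2% and 65.9% of all genes. Taking the presence of islands in the 2 lists as the only measure of likeness, FT had the same state as ZTL, LKP2, AT2G34140, BFT, ATC and FUL, which 10.5% of all genes shared, and CO, TSF and CDF1 the state of 29.2% of all genes.

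**Figure D4:**
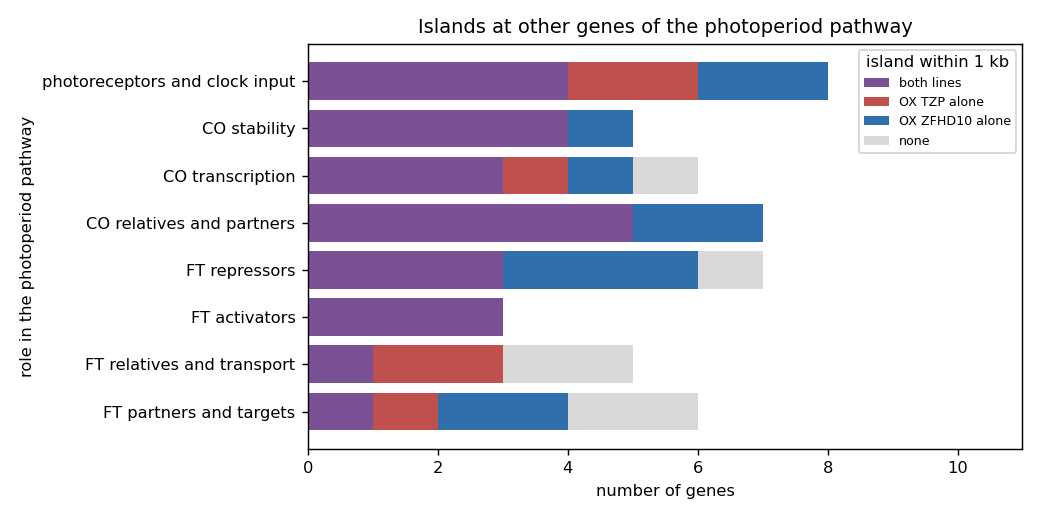
Number of other photoperiod pathway genes by role, split by islands within 1000 bp (both lines, OX TZP alone, OX ZFHD10 alone or none). All 7 CO relatives and partners and all 5 genes of CO stability had an OX ZFHD10 island, as did 1 of the 5 FT relatives and transport genes; 65.9% of all genes had one, and the roles were not tested against each other.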

How the data were processed

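Chromatin of seedlings aged 7 days was precipitated with an antibody against GFP and sequenced as single-end reads (75 bp), per the labels' protocols. Tools named in the submitters' processing notes, without their roles, are cutadapt 1.5, Bowtie 0.12.7, SICER 1.1 and HOMER, and the build is TAIR10. Window (50 bp), gap (200 bp) and false discovery rate (0.1) stand in the names of the deposited files. Beside the positions they hold deposited whole-number counts, taken as reads of each island from the values and the file layout, without scaling to depth or length. At this false discovery rate weak islands are kept, and neighbouring windows are joined across gaps, which ties island number and length to depth. Which library served as control, and how duplicate reads were handled, are not given in the sources used here.

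Positions were written counted from 1, and 9 organelle islands of OX TZP were left out. Genes came from a RefSeq table of TAIR10.1, which has no strand, exons or sequence, so gene starts were not told from gene ends and motifs were not searched. All 9 loci and all 47 pathway loci were found in it; CDF5 and AT2G34140 carry no name there. To compare positions between the builds, OX ZFHD10 midpoints were shifted along 25 chromosome segments, and the shift with the fewest midpoints in genes was within 200 bp of 0 in 24 segments and at most 300 bp. Intervals are 95% exact Poisson intervals and cover counting error only, with 1 library a line. PCR copies are not independent molecules, so where they were counted the intervals are too narrow even for counting error. Whole-library depth is unknown. Islands were ranked by reads per kb within their list. The genes and lists were chosen with earlier results of these data known. Pathway genes were named by the best sum of ranks (up to 3 per role with islands of both lines) and by having no island, and further ones were picked with their values in view. Alternatives changed the distance, the overlap, the islands kept, the rank and the background genes. The interval code was checked on simulated islands. Python 3.11.15, numpy 2.4.6, pandas 2.3.3 and scipy 1.17.1 were used.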

Additional observations from a re-analysis of the deposited data

How the results depend on the processing

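The count of genes with an OX ZFHD10 island was 6 to 8 under the 8 alternatives tried, while the share of all genes ran from 39.9% to 73.8%. That with an OX TZP island was 2 (CDF5 and TOE1) in the 50% of each list with the most reads and 4 to 7 otherwise (all genes 25.3% to 57.3% over the 8); FT had an island neither there nor in the denser 50% of each list. With 2000 bp, TSF gained an OX TZP island. Genes with islands of both lines numbered 3 in the denser 50% and 2 in the 50% with the most reads, against 5, and the share of all genes fell likewise, to 14.0% and 15.7% from 36.7%. Overlapping islands, 5 in the main count, were found at 2 genes in the denser 50%, 2 in the 50% with the most reads, 3 with the OX ZFHD10 list limited to the length of the OX TZP list, and 3 with midpoints at most 250 bp apart (all genes 9.86%, 11.4%, 22.7% and 11.8%, against 26.6%). TEM1 had no OX ZFHD10 island, and so no overlap, when islands were assigned by midpoint or by at least 50% of their length. The median percentile of the densest OX TZP island of each gene was 70.5 by density and 35.7 by reads. At CDF5 the densest OX ZFHD10 island on the gene body had 229 reads per kb, against 266 in the main count. The densest OX TZP island on its body had 160, against 170, a move within the interval. In the rest of the 12 cases the densest island already touched the body, so its value could not change. CO and TSF had no OX ZFHD10 island on the body and were not among these cases. No paired analysis was possible because each line had 1 library, and for the same reason no library could be left out. The planned count of promoter motifs was not run, since no promoter sequence was used here.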
